A study of Mus musculus with 10 samples.

Results

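The genes examined were the 10 that encode core and accessory subunits of Polycomb repressive complex 2 (PRC2), namely *Ezh1*, *Ezh2*, *Suz12*, *Eed*, *Jarid2*, *Rbbp4*, *Rbbp7*, *Mtf2*, *Phf19* and *Aebp2*. They were chosen by symbol, and each of the 10 matched 1 Ensembl gene among the 46983 in the count files. RNA came from the right thoracic mammary fat pad of virgin female C57BL/6 mice at post-natal day 130. In 5 libraries the mice were fed a control folic acid (CFA) diet with 1 mg FA/kg, and in the other 5 a high folic acid (HFA) diet with 5 mg FA/kg. Each diet was given for 4 weeks and was followed by 4 weeks on the same maintenance diet in both groups, so the RNA was taken 4 weeks after the supplementation had ended. The fat pad holds adipocytes, stroma, vessels and epithelium, and markers of lymphoid cells and skeletal muscle were also present in these libraries. Libraries are named by their sample titles, and each log2 fold change is given as HFA minus CFA.

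PRC2 methylates lysine 27 of histone H3, a mark of silenced genes. Its methyl donor is made in the methionine cycle, which folate supplies with methyl groups. EZH1 and EZH2 are alternative catalytic subunits. EZH2 is typical of dividing cells, while EZH1 is also found in resting, differentiated tissue. SUZ12 and EED hold the catalytic subunit in an active complex, and RBBP4 and RBBP7 bind histones and serve several other chromatin complexes as well. MTF2 and PHF19, the Polycomb-like proteins, belong to one form of the complex, and JARID2 and AEBP2 to the other.

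Gene counts summed to between 7672199 and 14829291 reads in a library. The HFA library T2334 stood apart, with a median correlation of 0.798 with the other libraries against 0.918 to 0.970 for the rest. Summed over 5 B cell markers, T2334 had 2080 CPM (read counts scaled to library size), the CFA libraries T1234 and T1334 had 273 and 700 CPM, and the other 7 libraries had 2.84 to 4.49 CPM. The 5 T cell markers summed to 619 CPM in T2334, to 113 and 259 CPM in T1234 and T1334, and to 5.30 to 9.06 CPM elsewhere. None of these markers was at 0 in any library. Luminal and basal epithelial markers, which the tissue label calls for, were detected in all libraries and were lowest in T2334, at 290 CPM for the 5 luminal and 93.4 CPM for the 5 basal markers. Skeletal muscle markers (*Acta1*, *Ckm*, *Mylpf*, *Tnnt3* and *Myh4*) summed to 6120 to 37600 CPM in CFA, to 37500 to 49600 CPM in 4 HFA libraries and to 635 CPM in T2334, and none was at 0. Of these 4 HFA libraries, 3 were above all CFA libraries and T2234 was just below the highest of them, T1334. Log2 fold changes without T2334, and without all 3 libraries with B and T cell markers, are therefore given beside the results.

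All 10 genes passed the filter on low counts. Their levels can be set against each other only per length, as CPM per kilobase of exon. In CFA libraries *Rbbp7* was the most abundant at 30.1 ± 2.17 CPM per kilobase (mean ± SD, n = 5), followed by *Rbbp4* at 13.3 ± 0.981 and *Suz12* at 11.8 ± 1.58. Next came *Ezh1* at 8.34 ± 0.908, *Eed* at 7.58 ± 0.375 and *Aebp2* at 7.06 ± 0.772 CPM per kilobase. The lower end was held by *Mtf2* at 4.95 ± 1.02, *Jarid2* at 4.52 ± 0.672, *Ezh2* at 2.83 ± 0.523 and *Phf19* at 0.594 ± 0.0656 CPM per kilobase. In all 5 CFA libraries *Rbbp7* was above *Rbbp4*, *Suz12* above *Ezh1*, *Aebp2* above *Mtf2*, *Jarid2* above *Ezh2* and *Ezh2* above *Phf19*. The other neighbours, *Rbbp4* with *Suz12*, *Ezh1* with *Eed*, *Eed* with *Aebp2* and *Mtf2* with *Jarid2*, did not keep 1 order in every library. By their means, the order in HFA libraries was the same but for *Jarid2* and *Mtf2*, which changed places at 4.89 ± 1.43 and 4.78 ± 2.46 CPM per kilobase. Library by library, however, *Suz12* was above *Ezh1* in only 2 of the 5 HFA libraries. The HFA mean of *Suz12* rested in part on T2334, at 22.9 CPM per kilobase. *Phf19* had the fewest reads, 11 to 48 in each library but T2334, so its values are the least precise.

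*Ezh1* was the member that separated the diets. Its level was 67.6, 61.4, 51.5, 68.4 and 61.2 CPM in the CFA libraries and 76.3, 90.8, 77.8, 78.6 and 77.3 CPM in the HFA libraries. Every HFA library lay above every CFA library, which was so for 0.750% of the 15610 genes tested. The means were 62.0 ± 6.76 CPM with CFA, against 80.2 ± 6.02 CPM with HFA (SD, n = 5 per group), and the difference on the log2 scale was 0.37 with a standard error of 0.106. Its p in the quasi-likelihood test of edgeR was 0.00562 before and 0.648 after adjustment, so the difference did not pass over all genes. An unadjusted p below 0.05 with a higher level in HFA was found for 3.87% of genes. *Ezh1* kept its sign in all 24 alternative fits, at 0.34 without T2334 and 0.37 without the 3 libraries with B and T cell markers. In bulk tissue, fewer cells of a type and less RNA per cell cannot be told apart, for this and every other gene. *Ezh1* lies on chromosome 11 of GRCm38 from 101191115 to 101226463 on the minus strand, and its exons overlap those of no other counted gene.

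*Ezh2* was lower in most HFA libraries. It had 17.2, 24.0, 21.1, 15.8 and 16.6 CPM in the CFA libraries and 9.96, 10, 14.5, 13.3 and 29.3 CPM in the HFA libraries. The first 4 HFA libraries lay below all 5 CFA libraries, and the fifth, T2334, lay above them. With all libraries HFA minus CFA came to −0.29 on the log2 scale (standard error 0.300, edgeR adjusted p = 0.836), with means of 18.9 ± 3.49 CPM with CFA, against 15.4 ± 8.01 CPM with HFA (SD, n = 5 per group). Without T2334 it was −0.71 (standard error 0.177, adjusted p = 0.0765), and the 4 remaining HFA libraries had 11.9 ± 2.29 CPM. Without the 3 libraries with B and T cell markers it was −0.60 (standard error 0.183, adjusted p = 0.0985), both by the same edgeR test. With the skeletal muscle markers as a term, *Ezh2* was at −0.39 (adjusted p = 0.212) and *Ezh1* at 0.37 (adjusted p = 0.153) by edgeR. Muscle markers were higher in most HFA than in most CFA libraries and lowest in T2334, so this fit cannot fully separate muscle content from diet. The part of muscle in the level of either gene was not tested. *Ezh2* passed the adjusted threshold in 1 alternative, limma voom with quality weights, at −0.69 with an adjusted p of 0.0447. The gene lies on chromosome 6 of GRCm38 from 47530139 to 47595341 on the minus strand. Antisense genes share 2.61% of its exonic bases, and reads there could not be assigned by strand.

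**Figure D1:**
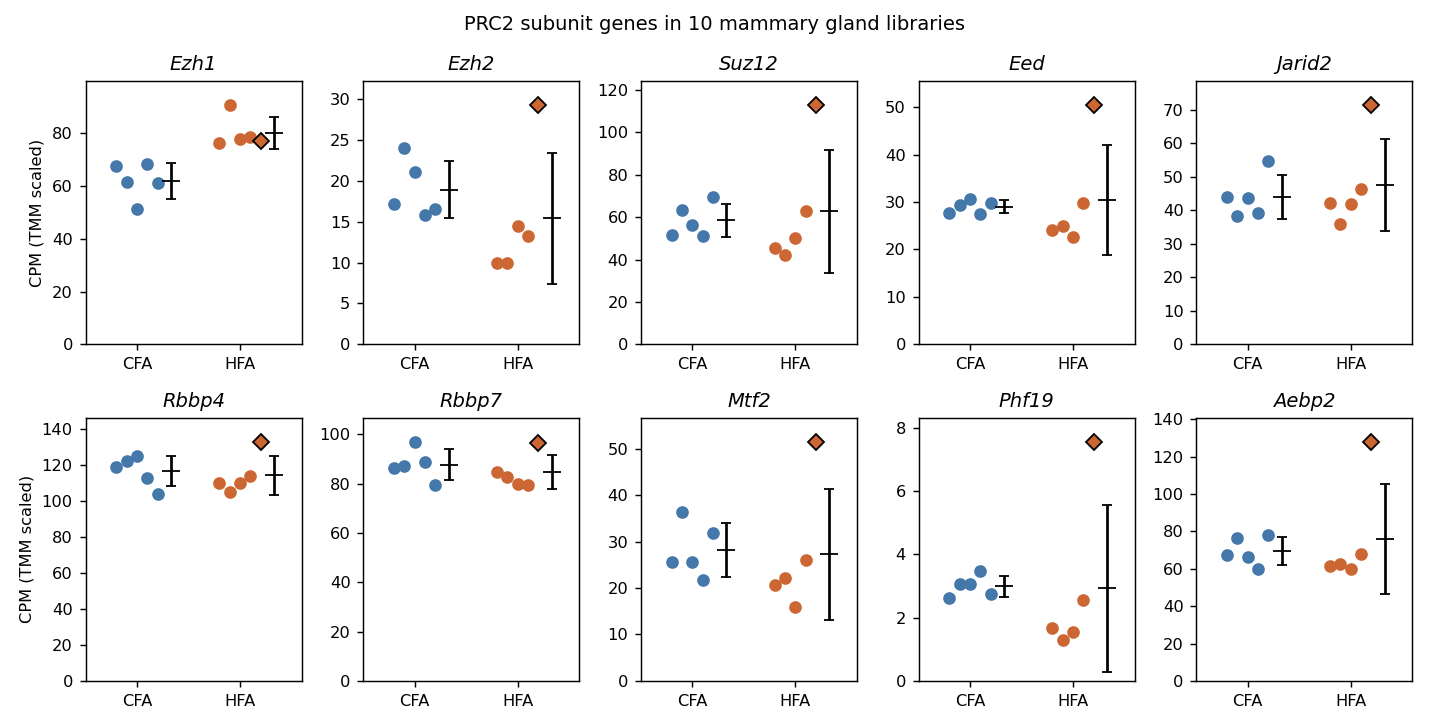
Level of each PRC2 gene in CPM after TMM scaling (y axes, from 0) in the 5 CFA (blue) and 5 HFA (orange) libraries. Each point is 1 library, the diamond is T2334, and the bars to the right are the mean and SD over 5 libraries. The HFA points of *Ezh1* all lie above the CFA points, those of *Ezh2* and *Phf19* lie below them except for T2334, and T2334 is the highest library for 8 of the 10 genes.

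The ratio of *Ezh1* to *Ezh2*, per exon length, compares the catalytic subunits within each library and does not depend on scaling. It was 3.53, 2.3, 2.2, 3.88 and 3.32 in the CFA libraries and 6.87, 8.15, 4.82, 5.32 and 2.37 in the HFA libraries. In 4 of 5 HFA libraries the ratio was above all CFA libraries, and in T2334 it fell among them. *Ezh2* accordingly made up 20.5% to 31.3% of the *Ezh1* and *Ezh2* signal in CFA, 10.9% to 17.2% in 4 HFA libraries and 29.7% in T2334. The mean log2 ratio was 1.57 ± 0.376 in CFA and 2.35 ± 0.684 in HFA (SD, n = 5 per group), a difference of 0.78 or 1.72-fold. A two-sided exact permutation test gave p = 0.0714, where the smallest value it can give is 0.00794. Without T2334 the difference was 1.05, at the smallest p that the exact test can give (0.00794). Without the 3 libraries with B and T cell markers (3 CFA and 4 HFA left) it was 0.98, again at the smallest p of that exact test (0.0286). Both of these p-values were fixed in advance, since T2334 was the only HFA library whose ratio fell among the CFA libraries. They add no support to the test with all libraries. This ratio was examined with earlier results for *Ezh2* known.

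**Figure D2:**
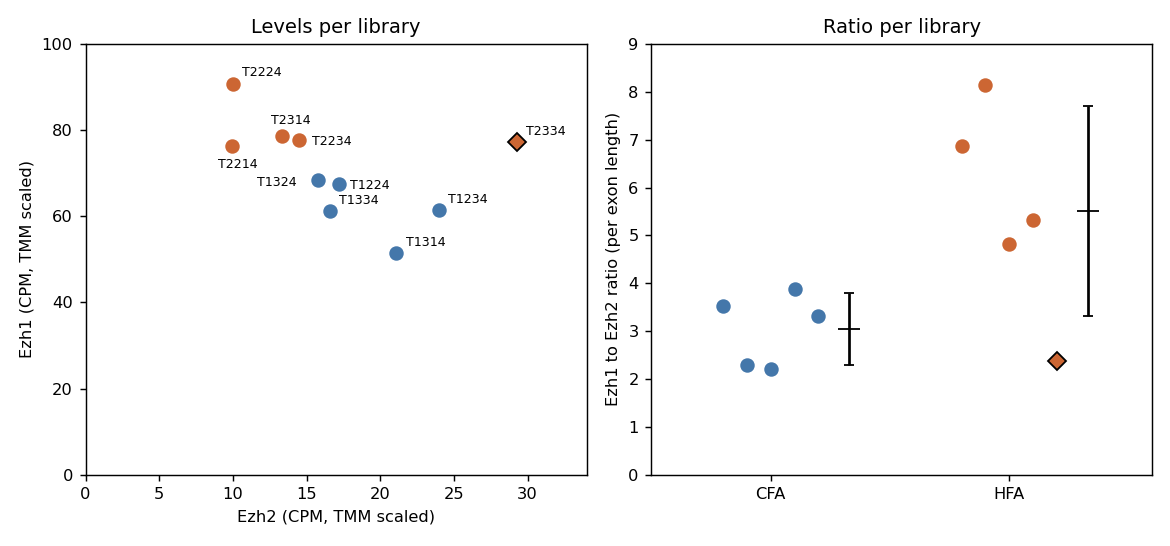
Left, *Ezh1* (y axis) against *Ezh2* (x axis) in CPM after TMM scaling, with each library labelled by its title. Right, the *Ezh1* to *Ezh2* ratio per exon length by diet, with mean and SD (n = 5). CFA libraries are blue, HFA libraries orange, and T2334 is the diamond. Ratios of 4.82 to 8.15 in 4 HFA libraries lie above the CFA range of 2.2 to 3.88, and T2334 lies within it at 2.37.

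The second digit of the sample title, which the labels do not explain, divides each group, and what it marks is not known. Among libraries with the digit 2 (2 CFA and 3 HFA) the log2 difference between diets was 0.34 for *Ezh1*, −0.84 for *Ezh2* and 1.18 for their ratio. Among those with the digit 3 (3 CFA and 2 HFA, of which T2334 is 1) it was 0.38, 0.16 and 0.22. The difference of *Ezh1* was positive within both digits. That of *Ezh2* within the digit 3 rests on T2334, since the other HFA library there, T2314, had 13.3 CPM against 15.8 to 21.1 CPM in the CFA libraries.

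The starts of the catalytic genes are shown because the report turns on their ratio, and those of *Suz12* and *Phf19* because they too hold a match to the E2F motif, with other letters than *Ezh2*. Capitals mark E2F letters (TTTCCCGC, TTTCGCGC, TTTGCCGC or TTTGGCGC, either strand) and CCAAT letters (either strand), where E2F factors drive genes of DNA replication and CCAAT is bound by NF-Y. The sequences are RefSeq promoter windows of GRCm38.p6, all on the strand of the gene. Positions are counted from the RefSeq start, and the *Ezh2* window lies inside the longer GENCODE gene.
Ezh2 (chr6:47595015-47595130, minus strand): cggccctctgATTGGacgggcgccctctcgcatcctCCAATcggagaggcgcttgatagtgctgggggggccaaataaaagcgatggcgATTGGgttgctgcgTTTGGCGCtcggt
Ezh1 (chr11:101226464-101226563, minus strand): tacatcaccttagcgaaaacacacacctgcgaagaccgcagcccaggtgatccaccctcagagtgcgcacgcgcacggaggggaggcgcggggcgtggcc
Suz12 (chr11:79992876-79992915, plus strand): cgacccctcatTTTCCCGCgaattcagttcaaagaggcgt
Phf19 (chr2:34914157-34914196, minus strand): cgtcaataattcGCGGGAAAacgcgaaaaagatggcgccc

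The E2F letters of *Ezh2* begin at base 4 after the start, and its 3 CCAAT matches begin at −90, −64 and −11. *Suz12* and *Phf19*, shown for the stretch around their E2F letters, have them from −219 and −208. The 10 members had 14 windows of 300 bases, of which 3 held E2F letters, against 2.26% of all 32851 promoter windows. CCAAT letters were found in 9 of the 14 windows, against 37.4% of all windows, and in no window of *Ezh1* or *Phf19*. The motifs were chosen with the expression values known, and a match of letters is not evidence of binding.

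Among the partners that hold the catalytic subunit, *Suz12* had 51.8, 63.5, 56.5, 51.2 and 69.3 CPM in CFA and 45.4, 42.0, 50.4, 62.8 and 113 CPM in HFA libraries. The HFA libraries lay on both sides of the CFA range, with 3 below it and T2334 far above it. The diets differed by 0.10 on the log2 scale (standard error 0.261, adjusted p = 0.933, edgeR's quasi-likelihood test), by −0.27 without T2334 and by −0.088 without the 3 libraries. *Eed* varied least in CFA, with 27.6, 29.4, 30.7, 27.5 and 29.9 CPM, against 24.2, 25.0, 22.6, 29.8 and 50.5 CPM in HFA. It differed by 0.071 on the log2 scale (standard error 0.213, adjusted p = 0.945) and −0.23 without T2334, where the unadjusted p was 0.0441 and the adjusted p 0.185 by the same edgeR test. Without the 3 libraries *Eed* was at −0.17. For both genes T2334 turned the sign. *Eed* stood at 0.648 ± 0.0664 of the *Suz12* level per exon length in CFA and at 0.646 ± 0.0830 in HFA libraries (SD, n = 5), and T2334 was at 0.577.

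On GRCm38, *Suz12* lies on chromosome 11 from 79993106 to 80034123 (plus strand) and *Eed* on chromosome 7 from 89954654 to 89980983 (minus strand), and non-coding antisense genes share 3.60% and 6.82% of their exonic bases.

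The histone-binding subunits varied little. *Rbbp4* had 117 ± 8.58 CPM with CFA, against 115 ± 10.9 CPM with HFA, and *Rbbp7* 87.7 ± 6.33 and 84.6 ± 6.98 CPM (SD, n = 5 per group). The log2 fold changes were −0.025 for *Rbbp4* (standard error 0.101) and −0.051 for *Rbbp7* (standard error 0.0961), with adjusted p-values of 0.958 and 0.912 by edgeR's quasi-likelihood test. Without T2334 they were −0.13 and −0.15, and without the 3 libraries −0.12 and −0.15. In T2334 these genes had 133 and 96.6 CPM, and *Rbbp7* was the single member that did not exceed all CFA libraries there. *Rbbp4* lies on chromosome 4 from 129307100 to 129335370 (minus strand) and *Rbbp7* on chromosome X from 162760402 to 162779092 (plus strand). Other genes cover 18.0% of the exonic bases of *Rbbp4*, where reads could be left uncounted as ambiguous.

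Of the Polycomb-like subunits, *Phf19* was the lowest expressed member and, in HFA, the most variable relative to its mean. It had 2.61, 3.07, 3.06, 3.47 and 2.76 CPM in CFA and 1.66, 1.29, 1.56, 2.56 and 7.57 CPM in HFA libraries. As for *Ezh2*, 4 HFA libraries lay below all CFA libraries and T2334 above them. The log2 fold change was −0.0033 with all libraries (standard error 0.474, adjusted p = 1), and −0.80 without T2334 (standard error 0.235, adjusted p = 0.102), both by edgeR's quasi-likelihood test. Without the 3 libraries with B and T cell markers it was −0.78. *Mtf2*, which recruits the complex to unmethylated CpG islands, had 28.2 ± 5.80 CPM with CFA, against 27.2 ± 14 CPM with HFA (SD, n = 5 per group). Its HFA libraries without T2334 ran from 15.9 to 26.0 CPM and overlapped the CFA range of 21.7 to 36.3 CPM. The log2 fold change of *Mtf2* was −0.046 with all libraries, −0.45 without T2334 (adjusted p = 0.160, edgeR) and −0.20 without the 3 libraries. *Phf19* lies on chromosome 2 from 34893757 to 34914026 (minus strand) and *Mtf2* on chromosome 5 from 108065674 to 108109004 (plus strand).

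The subunits of the other form of PRC2 overlapped between the diets with and without T2334. *Jarid2*, a DNA-binding cofactor, had 43.9, 38.2, 43.5, 39.3 and 54.7 CPM in CFA and 42.0, 36.0, 41.7, 46.4 and 71.4 CPM in HFA libraries. *Aebp2*, a zinc finger protein, had 69.5 ± 7.61 CPM with CFA, against 75.9 ± 29.1 CPM with HFA (SD, n = 5 per group), with 59.7 to 67.8 CPM in HFA libraries other than T2334 and 128 CPM in that library. The log2 fold changes were 0.11 and 0.13 (standard errors 0.190 and 0.216), and −0.13 and −0.19 without T2334, with adjusted p-values of 0.536 and 0.258 there by edgeR's quasi-likelihood test. Without the 3 libraries they were −0.028 and −0.035. *Jarid2* lies on chromosome 13 from 44729474 to 44921643 and *Aebp2* on chromosome 6 from 140622663 to 140678472, both on the plus strand.

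Over the 10 genes, 0 had all 5 HFA libraries below all 5 CFA libraries, against 0.243% of all genes. Of the 10, 1 had an unadjusted p below 0.05 (*Ezh1*, higher in HFA), 5 were lower and 5 higher, and the median log2 fold change was 0.03. Over all 15610 genes tested, 7.36% had an unadjusted p below 0.05, 40.0% were lower in HFA and the median was 0.06. By edgeR's quasi-likelihood test 0 genes passed the adjusted threshold (0.00%), with 1149 below 0.05 unadjusted. The study, whose edgeR model also held the cage, did report genes past an adjusted threshold of 0.05, most of them higher after HFA. Other tools passed 33 (likelihood ratio test), 60 (DESeq2), 0 (voom) and 1037 genes (voom with quality weights), and the only member among any of these was *Ezh2* with quality weights. Without T2334, 9 of the 10 genes were lower in HFA, all but *Ezh1*, where 55.1% of genes were lower. An unadjusted p below 0.05 was then found for 4 members that were lower (*Ezh2*, *Eed*, *Mtf2* and *Phf19*), against 15.0% of genes, and for *Ezh1*, which was higher, against 10.8% of genes. Without the 3 libraries with B and T cell markers, 9 were again lower, of which *Ezh2* and *Phf19* had an unadjusted p below 0.05, against 49.0% and 11.5% of genes. The 4 HFA libraries other than T2334 were all below the 5 CFA libraries for 2 members, against 4.74% of genes.

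**Figure D3:**
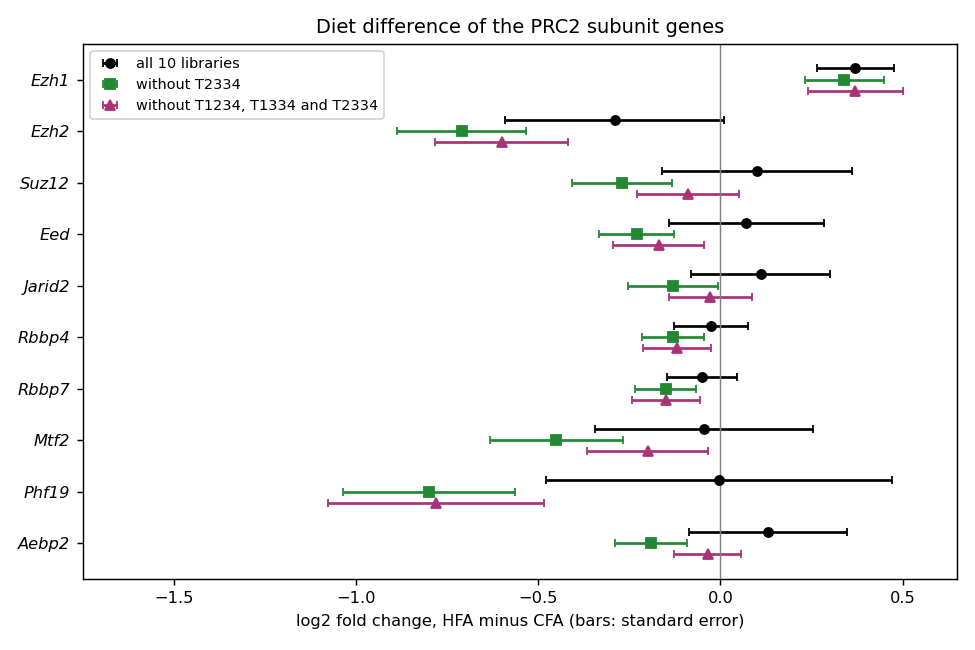
Log2 fold change between diets (x axis, HFA minus CFA, edgeR) of each PRC2 gene, with standard errors as bars. Black circles are all 10 libraries, green squares omit T2334, and purple triangles omit T1234, T1334 and T2334. *Ezh1* stays between 0.34 and 0.37, whereas *Ezh2* and *Phf19* move from −0.29 and −0.0033 to −0.71 and −0.80 without T2334.

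T2334 set much of the spread of these genes in HFA. It was above all CFA libraries for 9 members, and it was the highest of the 10 libraries for 8 members, against 31.8% of all genes. The libraries T2214, T2224 and T2234 were below all CFA libraries for 5, 5 and 6 members, and T2314 for 2. Shares of all genes above or below all CFA libraries in a single HFA library are not given here. These counts, and the 9 of T2334, therefore describe the members alone and do not set them apart from other genes. Without T2334, 55.1% of all genes were lower in HFA. The high PRC2 levels of T2334 came with the highest B and T cell markers and the lowest epithelial and skeletal muscle markers of any library. T1234 and T1334, which also had B and T cell markers, were the highest CFA libraries for *Suz12* (63.5 and 69.3 CPM), *Mtf2* (36.3 and 31.8 CPM) and *Aebp2* (76.3 and 78.1 CPM). For *Ezh2* T1234 was the highest CFA library at 24.0 CPM and T1334 among the lower ones at 16.6 CPM. *Jarid2* was highest in T1334 (54.7 CPM) and lowest in T1234 (38.2 CPM) among CFA libraries. T1334 was the lowest CFA library for *Rbbp4* (104 CPM) and *Rbbp7* (79.3 CPM), and *Ezh1*, *Eed* and *Phf19* were highest in other CFA libraries. The part of lymphoid cells and of muscle in these levels was not tested.

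Cell division genes were, like *Ezh2*, lower in 4 HFA libraries. Summed over 42 S phase genes, the level was 588 to 792 CPM in CFA, 411 to 484 CPM in 4 HFA libraries and 999 CPM in T2334. Summed over 52 G2M genes, it was 1090 to 1540 CPM in CFA, 787 to 893 CPM in 4 HFA libraries and 1690 CPM in T2334. Both sums split the libraries as *Ezh2* did, with 4 HFA libraries below and T2334 above all CFA libraries. Gene by gene, 63.5% of the G2M genes were below all CFA libraries in the 4 HFA libraries, against 4.74% of all genes, but only 25.0% were highest in T2334, against 31.8% of all genes. For the S phase genes these shares were 53.7% and 51.2%. In the G2M sum of T2334, *Smc4*, a condensin subunit, was at 241 CPM against at most 91.0 CPM in CFA. *Ctcf*, *Tmpo* and *Lbr* were also above CFA there, at 158, 127 and 107 CPM against at most 98.8, 89.7 and 55.8 CPM. The proliferation marker *Mki67* was within the CFA range of 28.1 to 112 CPM at 72.8 CPM. For each 100 CPM of G2M genes there were 1.37 to 1.97 CPM of *Ezh2* in CFA and 1.12 to 1.73 CPM in HFA libraries, and these ranges overlapped. With the mean of the G2M genes as a term in the fit, the log2 fold change of *Ezh2* was 0.18 (unadjusted p = 0.484 by edgeR) and 0 of the 10 members were lower in HFA, while that of *Ezh1* was 0.32 (unadjusted p = 0.0360). The median log2 fold change in that fit was 0.30 over the members and 0.027 over all genes. Whether a smaller share of dividing cells went with lower *Ezh2* in these 4 libraries was not tested.

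**Figure D4:**
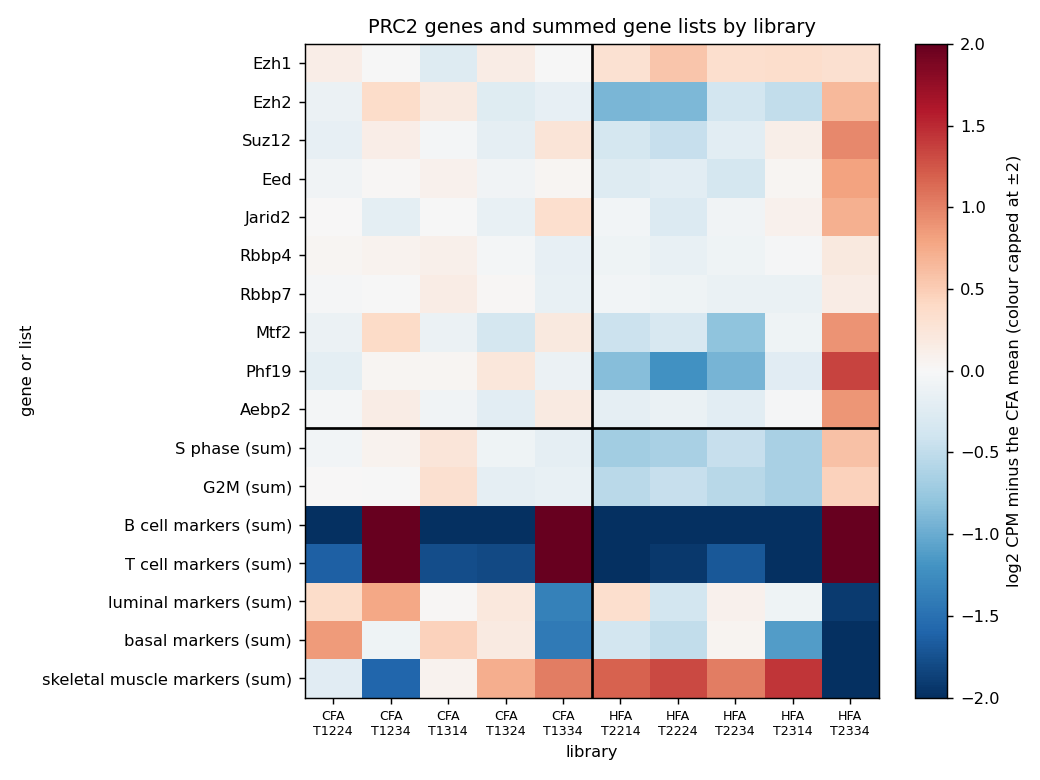
Colour gives the log2 CPM of each PRC2 gene (upper rows) and of summed gene lists, muscle markers included (lower rows) in each library minus the mean of the CFA libraries, capped at 2 in either direction. Columns are the 5 CFA and 5 HFA libraries. *Ezh2*, *Phf19*, S phase and G2M genes are below the CFA mean in 4 HFA libraries and above it in T2334, while *Ezh1* is above it in all 5 HFA libraries.

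The genes whose log2 CPM was most like that of *Ezh2* over the 10 libraries were *Gm9800*, *Rfx3*, *Mcm7* and *Npm1*, with Pearson's r of 0.978, 0.973, 0.973 and 0.968. *Mcm7* encodes a subunit of the replicative helicase, *Npm1* a nucleolar protein and *Rfx3* a transcription factor, and *Gm9800* is annotated as a processed pseudogene. Without T2334 these values were 0.951 to 0.970. The genes most like *Ezh1* were *Mettl7a1*, *Crebl2*, *Ubb*, *Sema6b* and *Zbtb4*, with r of 0.907 to 0.945. *Mettl7a1* had 139 CPM with CFA, against 260 CPM with HFA on average. These likenesses were picked as the highest among all genes, share the libraries and their scaling, and are given as descriptions.

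Other Polycomb genes gave a mixed picture. Of 4 further PRC2 partners tested, 0 had an unadjusted p below 0.05, and *Phf1*, the remaining Polycomb-like gene, had 40.8 ± 13.9 CPM with CFA, against 52.2 ± 26.4 CPM with HFA (SD, n = 5). Of 19 genes of PRC1, the complex that ubiquitylates histone H2A, 10 were lower and 9 higher in HFA, with 2 and 1 at an unadjusted p below 0.05, against 3.49% and 3.87% of all genes. *Cbx2*, a reader of PRC2's mark, had 11.5 ± 3.80 CPM with CFA, against 6.65 ± 0.420 CPM with HFA (−0.79 on the log2 scale). The related reader *Cbx6* had 110 ± 30.6 and 76.6 ± 10.1 CPM (−0.53), and *Pcgf5*, a subunit of variant PRC1, 15.4 ± 3.17 and 22.3 ± 2.91 CPM (0.54). *Kdm6b*, which removes the PRC2 mark, had 38.5 ± 4.12 CPM with CFA, against 47.1 ± 6.26 CPM with HFA (0.29), and the other demethylase, *Kdm6a*, differed by 0.047 on the log2 scale. The adjusted p-values of *Cbx2*, *Cbx6*, *Pcgf5* and *Kdm6b* were 0.648 to 0.670 by edgeR's quasi-likelihood test. *Bmi1*, another PRC1 subunit, had 57.4 ± 2.76 CPM with CFA, against 64.1 ± 14.2 CPM with HFA, with 85.9 CPM in T2334. The study described *Ezh2*, *Suz12*, *Jarid2* and *Bmi1* as nominally lower after HFA. Its edgeR model also held the cage, whereas the fit here holds the diet alone. With all libraries they were here at −0.29, 0.10, 0.11 and 0.16 on the log2 scale, each with an unadjusted p above 0.05 by edgeR. Without T2334 *Ezh2*, *Suz12* and *Jarid2* were lower, at −0.71, −0.27 and −0.13, with unadjusted p-values of 0.0024, 0.0771 and 0.330 by edgeR. The fit of *Bmi1* without T2334 is not given here, so the direction of all the named genes is not shown for that setting.

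Genes on which PRC2 acts were examined in short lists. Of 10 genes with EZH2 binding sites named by the study, which drew them from genes that differed in these mice so that their direction is not independent evidence, 6 were lower and 4 higher after HFA, their median was −0.010 on the log2 scale and there were 0 at an unadjusted p below 0.05 (edgeR's quasi-likelihood test). Over all genes 40.0% were lower, the median was 0.06 and 7.36% had such a p. The most abundant, *Col6a2*, a collagen chain, had 226 ± 53.4 CPM with CFA, against 184 ± 113 CPM with HFA (SD, n = 5), and it had 63.8 CPM in T2334. The study listed *Col6a2* and *Tubb4a* among the genes most clearly higher after HFA, with a model that also held the cage. Here their log2 fold changes were −0.30 and −0.19, with unadjusted p-values of 0.498 and 0.668 by edgeR's quasi-likelihood test. *Lama2*, a laminin chain, had means of 83.5 and 83.6 CPM, a range of 40.2 to 116 CPM in CFA and one of 10.9 CPM (T2334) to 161 CPM in HFA. Of 13 textbook PRC2 targets, 7 were expressed enough to be tested, 4 lower and 3 higher, and 1 had an unadjusted p below 0.05, higher in HFA, against 3.87% of all genes. That gene, *Bmp2*, a secreted growth factor, had 2.26 ± 0.819 CPM with CFA, against 4.07 ± 2.22 CPM with HFA, with its highest value, 7.83 CPM, in T2334. *Cdkn2a*, a classic PRC2-silenced cell cycle inhibitor, was among the genes too low to be tested, at 0.356 CPM with CFA, against 0.377 CPM with HFA on average.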

How the data were processed

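Per the labels and the study's methods, the authors aligned paired reads to GRCm38 with TopHat2 2.0.14 and Bowtie2 2.2.5 and counted them on Ensembl genes with HTSeq 0.6.1. The deposited values are whole-number counts per gene without normalization, for 46983 genes and 5 summary lines, which were left out. Reads with more than 1 alignment (28.8% to 33.9%), on more than 1 gene (3.52% to 4.29%) or on no gene (3.43% to 5.47%) were not counted on genes. The depth was 7672199 to 14829291 reads per library. Symbols, positions and union exon lengths came from GENCODE M21 (GRCm38), which held 46488 of the genes. TruSeq v2 libraries carry no strand.

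HFA was compared with CFA in R 4.3.3 by the quasi-likelihood test of edgeR 4.0.16 (filterByExpr, TMM, no covariates, Benjamini-Hochberg over 15610 genes, threshold 0.05). The study's model also held the cage, which the labels do not give. Standard errors are the log2 fold change over the root of F. CPM are after TMM scaling, and log2 CPM used a prior count of 2. No library was a copy of another (lowest chi-square per gene 13.7 over 45 pairs), and p-values measure the spread between mice, which the study's methods count singly. Alternatives were RLE scaling, no filter, CPM above 1 in 5 libraries, the likelihood ratio test, DESeq2 1.42.0, limma 3.58.1 (voom, and voom plus quality weights), the title's second digit, a block by title digits, B and T cell, epithelial or G2M means as terms, and each library left out. Leaving out T1234, T1334 and T2334, whose summed B and T cell markers exceeded 100 CPM, and skeletal muscle markers as a term were added after seeing the data. Fits were tested on simulated data, which had less spread between libraries than these data and no outlying library such as T2334. The simulation therefore does not show how the fits handle T2334. All 10 members were named. Of other Polycomb genes, those with an unadjusted p below 0.05 and *Bmi1* were named, and the 5 genes most like each of *Ezh1* and *Ezh2*, of which 1 is not reported here. *Phf1*, *Kdm6a*, *Tubb4a*, *Bmp2*, *Cdkn2a*, *Smc4*, *Ctcf*, *Tmpo*, *Lbr* and *Mki67* were chosen after their values were seen. Members and lists were chosen with earlier results of these data known. *Ezhip* had no match.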

Additional observations from a re-analysis of the deposited data

Results flagged for a closer look

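In the 22 sets of 5 libraries examined (10 genes and the *Ezh1* to *Ezh2* ratio, in each diet), 6 held a library far from the other 4 by Dixon's criterion, where chance gives about 1 in 20. All 6 were in HFA. In 5 of them the library was T2334, with 29.3 CPM of *Ezh2*, 50.5 CPM of *Eed*, 51.5 CPM of *Mtf2*, 7.57 CPM of *Phf19* and 128 CPM of *Aebp2*, each the highest of all 10 libraries. These 5 genes share that library and are not separate signs. The sixth was *Ezh1* in T2224, at 90.8 CPM against 76.3 to 78.6 CPM in the other HFA libraries. Without T2224 the log2 fold change of *Ezh1* was 0.32, with an unadjusted p of 0.0164 by edgeR's quasi-likelihood test.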

How the results depend on the processing

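The sign of *Ezh1* held in all 24 alternatives (0.26 to 0.43) and that of *Ezh2* in 23. The number of genes past the adjusted threshold was 33 by the likelihood ratio test, 60 by DESeq2, 1037 with quality weights, 3 with B and T cell markers and 1 with luminal and basal markers as a term, and 469 without the 3 libraries with B and T cell markers, against 0. The number of members with an unadjusted p below 0.05 was 3 with quality weights, 2 with epithelial markers, 2 with skeletal muscle markers (*Ezh1* and *Ezh2*) and 3 without the 3 libraries, against 1. Over all genes such a p was found in these fits for 4702, 2073 and 2662 of 15610 and for 3687 of 15759, against 1149. The number lower in HFA was 9 with quality weights, 9 with epithelial markers, 9 without the 3 libraries and 0 with the G2M term, against 5. The median log2 fold changes of the members were then −0.15, −0.22, −0.14 and 0.30, and those of all genes −0.0048, 0.022, 0.0085 and 0.027. The cause was not tested. With each library left out, the genes past the adjusted threshold ran from 0 to 6 and the members with an unadjusted p below 0.05 from 1 to 5. The members lower in HFA ran from 2 to 9, where 2 came without T2224 and 3 without T2214 or T2234. The highest of each came without T2334, where 4059 of 15735 genes had an unadjusted p below 0.05 by edgeR. The log2 ratio difference was 0.61 to 1.05 with each library left out, 0.98 without the 3 libraries, 0.68 by medians and 0.70 within the second title digit, with exact permutation p-values of 0.00794 to 0.238 over these, below 0.05 only where T2334 was left out. There the p-value was fixed in advance, as T2334 was the only HFA library whose ratio fell among the CFA libraries. Signs turned for *Eed* (−0.0081) with no filter. They turned for *Suz12* (−0.20), *Eed* (−0.19), *Jarid2* (−0.040) and *Aebp2* (−0.10) with quality weights. With epithelial markers these genes were at −0.30, −0.24, −0.14 and −0.19, and without the 3 libraries at −0.088, −0.17, −0.028 and −0.035. With the G2M term *Ezh2* (0.18), *Rbbp4* (0.12), *Rbbp7* (0.091), *Mtf2* (0.28) and *Phf19* (0.49) turned. With a library left out, values ran from −0.27 to 0.22 for *Suz12*, −0.23 to 0.16 for *Eed*, −0.13 to 0.21 for *Jarid2*, −0.13 to 0.0036 for *Rbbp4*, −0.45 to 0.094 for *Mtf2*, −0.80 to 0.18 for *Phf19* and −0.19 to 0.20 for *Aebp2*.

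The other title digits are shared by 4 CFA and HFA libraries, whose deviations correlated at 0.298, 0.111, 0.410 and −0.294. As not every pair was above 0.1, and no label gives a shared source, the digits were not taken to pair them. With them as a replicate block 0 genes passed, 1 member had an unadjusted p below 0.05, 5 were lower, and the log2 ratio difference was 0.77 (exact sign-flip p = 0.250). Depth limits *Phf19* most.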

Other observations

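RBBP4 and RBBP7 also serve the NuRD, Sin3, CAF-1 and DREAM complexes. Of 14 other genes of these complexes, 5 were lower and 9 higher in HFA, with 0 at an unadjusted p below 0.05 by edgeR's quasi-likelihood test, against 7.36% of all genes in either direction. *Chaf1a* and *Chaf1b*, the replication-coupled histone chaperone subunits, had log2 fold changes of −0.66 and −0.81. *Chaf1b* had 5.85 ± 1.51 CPM with CFA, against 3.28 CPM on average with HFA, with 8.15 CPM in T2334. *Chd4*, the NuRD remodeller, had 282 ± 5.98 CPM with CFA, against 313 CPM on average with HFA, and 378 CPM in T2334. These 3 genes were chosen after their values were seen.

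Relative to *Suz12* per exon length, *Ezh2* stood at 0.241 ± 0.0419 in CFA and 0.180 ± 0.0229 in HFA libraries (SD, n = 5). The ranges overlapped, at 0.177 to 0.28 in CFA and 0.156 to 0.213 in HFA, and T2334 lay within both at 0.192. *Ezh1* stood at 0.718 ± 0.147 in CFA, and in HFA it ran from 0.455 in T2334 to 1.44. The 3 genes that deubiquitylate histone H2A against PRC1 (*Bap1*, *Asxl1* and *Asxl2*) all had positive log2 fold changes, of 0.070, 0.090 and 0.16, where 40.0% of all genes were lower, and 0 had an unadjusted p below 0.05 by edgeR. All 3 were highest in T2334, as were 31.8% of all genes.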
